A study of Mus musculus with 12 samples.

Results

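The immunity-related GTPases examined here were the mouse genes Igtp, Irgm1, Irgm2, Iigp1 and Ifi47, taken with all 8 array probes that the platform annotation gives to these symbols. They are 5 of 16593 named genes and 8 of 25697 probes. Irgm1 had 3 probes, Iigp1 had 2, and the others had 1 each. They were measured in astrocytes made from Rosa25/OG2 neural stem cells, on Illumina bead arrays with 1 colour. The non-activated control had no stimulus. For the activated control, cells were exposed to 10 ng/ml of interferon-gamma and 1 µg/ml of the bacterial cell wall component lipopolysaccharide (LPS). The other 10 groups received the same stimuli and then, for 4 h, 1 hit compound each. The recorded time is 4 h for all 12 groups, both controls included. The labels give these as codes, without doses: E29, E4, E33, E14, E18, E19, E5, E20, E21 and E23. Each of the 12 groups is 1 array of 1 cell line, so there is no replicate error, no test between groups and no p-value.

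Immunity-related GTPases are large interferon-inducible GTP-binding proteins of cell-autonomous immunity. In mouse cells, the effector members of the family, among them Iigp1 (also called Irga6) and Ifi47 (Irgd), load onto vacuoles that hold intracellular parasites or bacteria and help to break them. The regulators Irgm1, Irgm2 and Igtp (Irgm3) sit on the membranes of the cell's own organelles and keep the effectors inactive there. Interferon-gamma induces the family through its receptor, the JAK kinases and transcription factors that include IRF1. Promoters of interferon-inducible genes can hold gamma-activated sites (GAS) and interferon-stimulated response elements (ISRE), the latter bound by IRF factors.

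The promoters are shown because those of Igtp and Irgm2 are near copies. They are a description of sequence, and their part in the changes below was not tested. Windows from 250 bases before to 50 bases after the gene start came from RefSeq, build GRCm38.p6. Iigp1 also has a position there, on a different chromosome from the other members, but its window was left out and not searched. The windows of the remaining 4 of the 5 genes were used. Each lies on chromosome 11: Igtp at chr11:58199306-58199605 (plus strand), Irgm2 at chr11:58214727-58215026 (plus strand), Irgm1 at chr11:48871371-48871670 (minus strand) and Ifi47 at chr11:49076337-49076636 (plus strand). Both strands were searched for GAS letters (TTCNNNGAA), ISRE letters (TTTC and TTTC with any 2 bases between) and NF-kB letters (GGG and TTTCC with any 2 bases between). Capitals mark the matches, and each sequence is written 5′ to 3′ in the direction of its gene.
Igtp: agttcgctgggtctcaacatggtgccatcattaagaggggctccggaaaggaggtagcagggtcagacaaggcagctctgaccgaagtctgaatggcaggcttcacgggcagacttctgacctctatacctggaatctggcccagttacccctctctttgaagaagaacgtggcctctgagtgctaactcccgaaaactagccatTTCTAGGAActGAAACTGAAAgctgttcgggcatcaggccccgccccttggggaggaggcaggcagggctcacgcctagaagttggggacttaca
Irgm2: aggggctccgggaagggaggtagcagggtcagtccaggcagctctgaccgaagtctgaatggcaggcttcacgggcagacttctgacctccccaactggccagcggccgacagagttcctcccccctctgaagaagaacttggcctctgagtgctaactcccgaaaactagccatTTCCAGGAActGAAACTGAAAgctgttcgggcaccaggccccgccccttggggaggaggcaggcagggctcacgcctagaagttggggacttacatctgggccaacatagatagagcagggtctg
Irgm1: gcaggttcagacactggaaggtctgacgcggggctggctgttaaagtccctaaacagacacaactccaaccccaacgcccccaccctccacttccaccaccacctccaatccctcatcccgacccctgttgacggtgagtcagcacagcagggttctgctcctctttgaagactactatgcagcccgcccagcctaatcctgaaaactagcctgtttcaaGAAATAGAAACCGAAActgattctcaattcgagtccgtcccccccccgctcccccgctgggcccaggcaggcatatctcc

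Igtp and Irgm2 each held 1 GAS match and 1 ISRE match, separated by a pair of bases. The matches lay from base -45 to -25 in Igtp and from -75 to -55 in Irgm2, counted back from the gene start. Irgm1 held no GAS match and 2 ISRE matches that overlap, from -30 to -21 and from -24 to -15. Ifi47 held none of the 3 motifs in its window, and sequence outside the 1 window per gene was not searched. For scale, GAS letters occurred in 8.3% of 32851 windows of the same length, ISRE letters in 3.44%, at least 2 ISRE matches in 0.225% and NF-kB letters in 1.63%. Over 270 aligned columns, the windows of Igtp and Irgm2 were identical in 244, or 90.4%, while Igtp and Irgm1 shared 71.4% of only 77 columns. Igtp and Irgm2 are also neighbours, with 0 annotated genes between them.

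**Figure D1:**
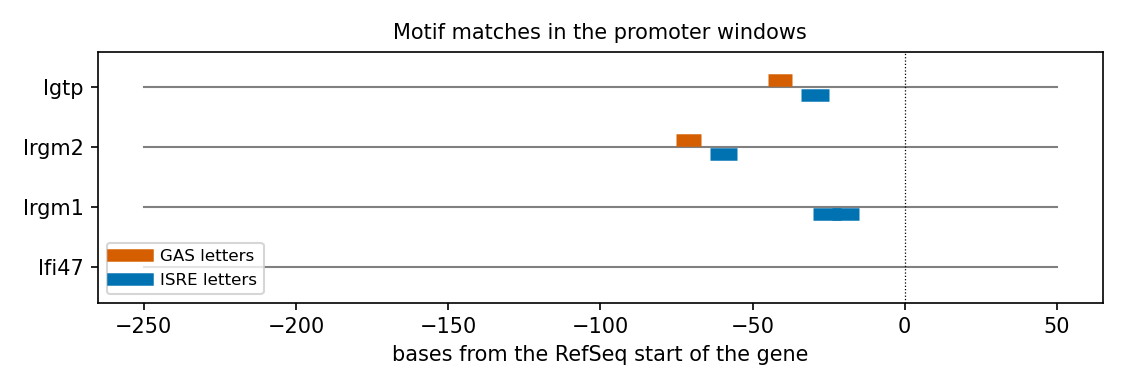
Positions of GAS (orange) and ISRE (blue) letters in the promoter windows of 4 immunity-related GTPase genes, on an axis of bases from the RefSeq start (dotted line). Igtp and Irgm2 hold 1 match of each kind in the same arrangement, Irgm1 holds 2 overlapping ISRE matches, and Ifi47 holds none in its window.

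Levels below are log2 intensities after background correction and quantile normalisation, and a probe counts as detected where the deposited detection p-value was under 0.01. The number of detected probes per array ran from 9106 with E29 to 10719 without activation. Gfap, an astrocyte filament protein, lay between 12.37 and 12.87 on all 12 arrays, and 9 of 10 astrocyte markers were detected on every array. None of the 12 microglia and macrophage markers with a probe was detected on any array, which include Aif1, Itgam, Cx3cr1 and Ptprc. Also detected on every array were 3 of 5 neural stem cell markers (Nes, Sox2, Vim), 2 of 6 neuronal markers (Map2, Syt1) and 1 of 4 oligodendrocyte lineage markers (Olig1). The rest of these were detected on no array: Pax6 and Prom1, Tubb3, Rbfox3, Snap25 and Stmn2, and Mbp, Mog and Olig2. In the sums that follow, an undetected marker counts as at least the lowest detected value of its array. Summed on the linear scale, the 10 astrocyte markers stood at 39400 in the activated control and 49500 with E29, the 6 neuronal markers at 2690 and 3800, the 4 of the oligodendrocyte lineage at 2440 and 3980, and the 5 of neural stem cells at 18600 and 19000. The part of these shifts in the E29 results was not tested. As a scale for small differences, the activated control and E5, the closest pair of arrays, differed with a standard deviation over genes of 0.20 log2 units. It is a spread between differently treated cells, not a replicate error. In bulk RNA, fewer cells of a type and less RNA per cell cannot be told apart.

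Every member was higher with activation. Of the 5 genes, 5 were at least 2-fold higher with activation than without it and 0 were lower, with a median log2 change of 3.84. Over all genes, 3.17% of 7659 measured were at least 2-fold higher and 2.12% were at least 2-fold lower, with a median of -0.03. By size of increase among those 7659 genes, Ifi47 ranked 3, Igtp 7, Irgm2 14, Iigp1 38 and Irgm1 67. By their brightest probes the regulators were detected without stimulus, whereas neither effector was detected there at the threshold of 0.01. For Ifi47 this depends on the threshold. Its deposited detection p-value on that array was 0.0326, which is under the alternative threshold of 0.05. At 0.01, Ifi47 and Iigp1 counted as measured only through the activated array, so the 5 of 5 includes these bounds.

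Among the regulators, Igtp stood at 8.70 without activation and at 14.04 with it, a 40.7-fold difference. In the compound arrays Igtp was 13.22 with E4, 14.00 with E5, 13.78 with E14, 13.86 with E18, 13.96 with E19, 14.00 with E20, 13.86 with E21, 13.95 with E23, 8.25 with E29 and 13.54 with E33. Thus Igtp was low on the non-activated and E29 arrays, lowest with E4 among the others, and within 0.82 log2 units over the 10 activated arrays without E29. On the activated control its probe ranked 25 among the 25697 probes by brightness. Quantile normalisation sets the values of the few brightest probes by rank, so this fold is approximate.

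Irgm2 stood at 9.33 without activation and at 13.18 in the activated control, a 14.4-fold difference. In the compound arrays Irgm2 was 11.89 with E4, 13.19 with E5, 12.75 with E14, 12.56 with E18, 13.18 with E19, 13.26 with E20, 13.13 with E21, 13.00 with E23, 7.73 with E29 and 12.96 with E33. Apart from E29, the E4 array was the lowest of the activated arrays for Irgm2, followed by E18 and E14. The range over the 10 activated arrays without E29 was 1.37 log2 units, the widest of the 5 genes' brightest probes.

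Irgm1 was read by 3 probes. Its brightest probe stood at 12.22 without activation and 14.21 with it, a 3.99-fold difference, and at 11.93 with E29. On the other 9 compound arrays this probe lay between 14.07 (E21) and 14.24 (E18), a range under the 0.20 log2 units given above, so no order is read from it. A second Irgm1 probe stood at 8.64 without activation and 13.31 with it, a 25.6-fold difference, at 7.92 with E29, and between 13.12 (E33) and 13.38 (E19) on the other 9. The remaining probe was dim: it was not detected on the non-activated and E29 arrays, was at least 4.21-fold higher on activation, and lay between 7.03 (E4) and 8.15 (E23) elsewhere. All 3 probes were low on the same 2 arrays and higher on activation, but their folds differed, so the size of the Irgm1 response depends on the probe. The brightest probe ranked 14 of 25697 on the activated control and had an intensity of 18713, where the highest probe of that array had 22427.

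Of the effectors, Ifi47 was not detected without activation (5.11, with 5.37 as the lowest detected value of that array) and stood at 11.51 with it, at least 70.5-fold higher. Where a gene was not detected on 1 of the 2 arrays, the lowest detected value of that array replaced any smaller value, so that the change is a bound. In the compound arrays Ifi47 was 10.91 with E4, 10.95 with E5, 10.50 with E14, 10.53 with E18, 10.56 with E19, 10.85 with E20, 11.54 with E21, 11.41 with E23 and 10.81 with E33, and it was not detected with E29. The activated control, E21 and E23 arrays were thus the highest for Ifi47, and the activated control lay 0.68 above the median of the other 10 activated arrays.

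For Iigp1, the brighter of 2 probes was not detected without activation or with E29 and stood at 8.08 in the activated control, a rise of at least 6.54-fold. In the compound arrays this probe was 6.79 with E4, 7.74 with E5, 7.57 with E14, 7.59 with E18, 7.33 with E19, 7.44 with E20, 7.89 with E21, 7.81 with E23 and 7.42 with E33. The activated control was the highest of the 11 activated arrays, 0.58 above the median of the other 10, and E4 was the lowest of those that detected the gene. The second Iigp1 probe was detected on the same 10 arrays, between 5.69 (E33) and 6.73 (activated control), and was at least 2.56-fold higher on activation.

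**Figure D2:**
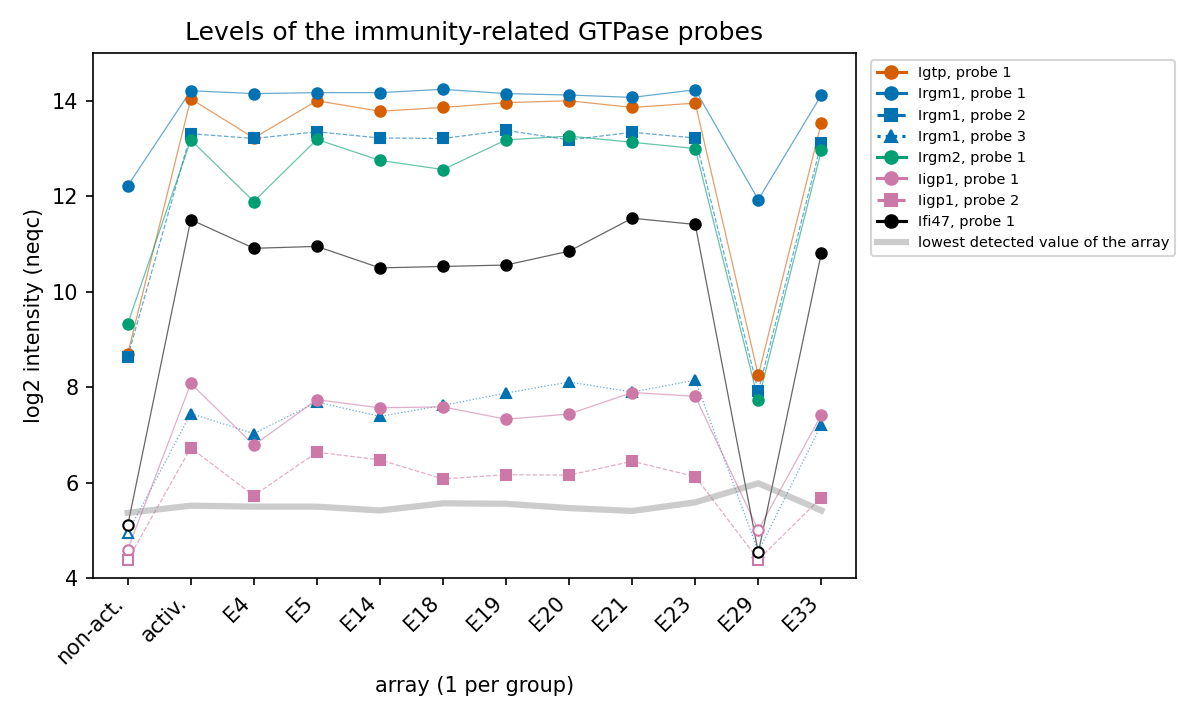
Log2 intensity of the 8 probes (vertical axis) on the 12 arrays (horizontal axis, 1 array per group). Filled symbols were detected, open symbols were not, thin lines only join the values of a probe, and the grey band is the lowest detected value of each array. All 8 probes are low on the non-activated and E29 arrays, and Irgm2 and Iigp1 dip with E4.

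E29 was the compound with which the whole family was near or below its level without activation. Against the activated control, 5 of 5 members were at least 2-fold lower with E29, with a median log2 change of -5.44, where 14.5% of 7472 measured genes were at least 2-fold lower and the median of all genes was 0.25. Igtp was 55.4-fold lower and Irgm2 was 43.5-fold lower, ranks 9 and 12 from the lowest change of all measured genes. Ifi47 was at least 46.1-fold lower and Iigp1 at least 4.27-fold lower, since neither was detected. Both counted as measured in this comparison only through the activated control. Irgm1 was 4.87-fold lower by its brightest probe, 42.1-fold by the second and at least 2.75-fold by the dim one. For the second Iigp1 probe the bound was 1.67-fold, which does not reach 2-fold, because the lowest detected value of the E29 array (5.99) was the highest of the 12. That array also detected the fewest probes, and the part of this in the result was not tested. Relative to the median of all genes, the members' median was -5.70 in this setting and -5.85 after median scaling or reference gene scaling of the arrays. Both scalings shift each array by a constant, so their values relative to all genes are the same by construction.

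Set against the non-activated control, E29 did not leave all regulators at the same level. Irgm2 was 3.03-fold lower than without activation, while Igtp was 1.36-fold and Irgm1 1.22-fold lower by its brightest probe and 1.64-fold by the second. Of the 3 members measured in this comparison, 1 was at least 2-fold lower, beside 13.1% of 7619 genes. With reference gene scaling Igtp passed 2-fold as well, at -1.29 log2 units, and the share of all genes with that scaling is not given for this comparison. Against the activated control, that scaling moved the median of all genes with E29 from 0.25 to -0.26. The part of such a shift in the Igtp value was not tested. Ifi47 and Iigp1 were detected on neither the non-activated nor the E29 array, so no difference is given for them. The other 9 compound arrays kept all 5 members at 2-fold or more over the level without activation by their brightest probes. Ifi47 and Iigp1 counted as measured there only through the compound arrays. The second Iigp1 probe did not reach 2-fold on 6 of them, with bounds of 1.28 (E4), 1.64 (E18), 1.74 (E19), 1.73 (E20), 1.69 (E23) and 1.25 (E33). With E4, the lowest of them for Irgm2 and Iigp1, Irgm2 was still 5.90-fold above it and Iigp1 at least 2.67-fold. That excess of Iigp1 was under 2-fold without background correction (0.59 log2 units), with an offset of 50 (0.94) and with reference gene scaling (0.95).

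With E4 the members differed in the size of their change. Against the activated control Irgm2 was 2.44-fold and Iigp1 2.45-fold lower, so 2 of 5 members were at least 2-fold lower, where 2.88% of 7494 measured genes were. Igtp was 1.76-fold lower and Ifi47 1.52-fold lower, short of 2-fold. The second Iigp1 probe fell just short of 2-fold, and without background correction the brighter one stood at -0.83. Irgm1 differed by -0.06 log2 units by its brightest probe, by -0.11 by the second and by -0.41 by the dim remaining one. The log2 changes of Irgm1 and Irgm2 thus lay 1.23 apart, and those of Igtp and Irgm2 0.47 apart. The brightest probe of Irgm1 ranked 14 and 17 by brightness on these arrays. The second Irgm1 probe stood beside Irgm2 in the activated control (13.31 and 13.18), and with E4 it stood at 13.21 where Irgm2 stood at 11.89.

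The reference moved these values. With the median of the remaining 10 activated arrays as the reference, Irgm2 stood at -1.17 with E4, Iigp1 at -0.79 (-0.44 by its second probe), Igtp at -0.68, Irgm1 at -0.01 and Ifi47 at 0.08. Irgm2 was then the single member at least 2-fold lower, and Ifi47 was not lower. For Igtp, Irgm2 and Iigp1 the E4 array ranked 10 of the 11 activated arrays, above E29, while for Ifi47 it ranked 5. With median scaling Irgm2 stood at -0.98, just short of 2-fold.

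**Figure D3:**
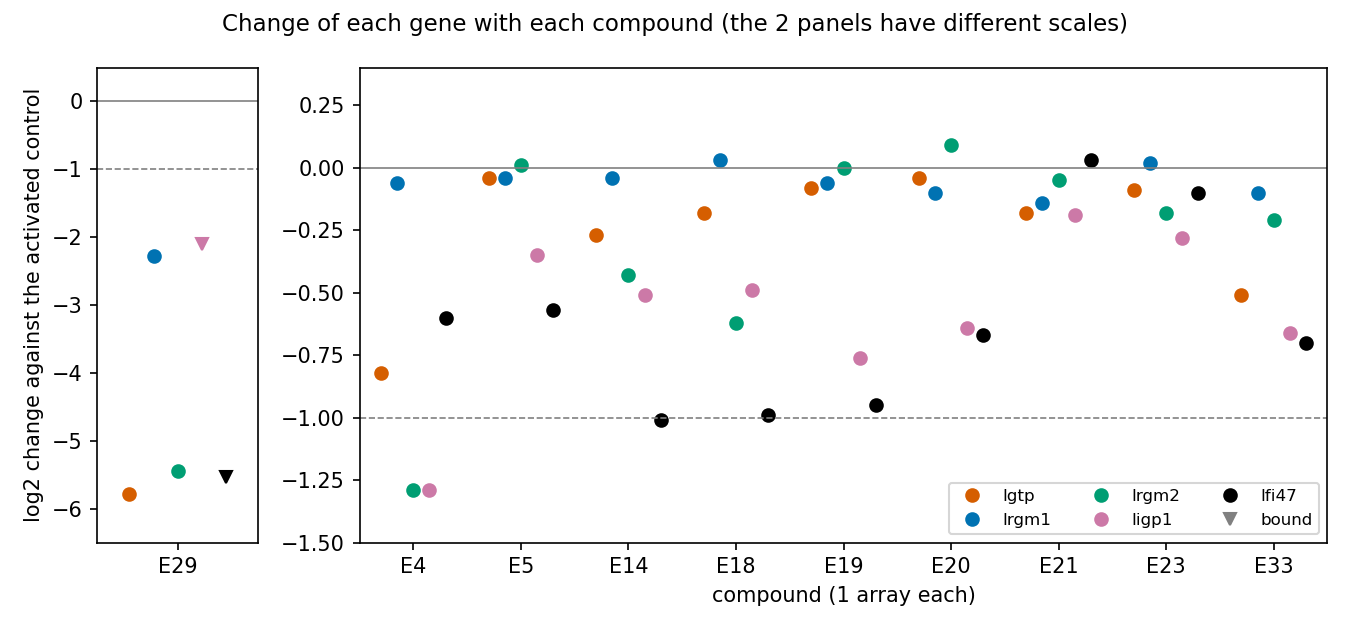
Log2 change of the brightest probe of each gene against the activated control (vertical axis) with each compound (horizontal axis, 1 array each). The left panel holds E29 on its own scale, the dashed line marks 2-fold lower, and triangles are bounds. With E29 all 5 genes lie below -2, with E4 Irgm2 and Iigp1 lie at -1.29 and Irgm1 at -0.06, and elsewhere Ifi47 with E14 alone passes 2-fold.

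With the remaining 8 compounds no regulator passed 2-fold by any probe, and their largest decreases were those of Irgm2 with E18 (-0.62), Igtp with E33 (-0.51) and Irgm2 with E14 (-0.43). No member was 2-fold lower with E33 by its brightest probe. Igtp stood at -0.51, Irgm2 at -0.21, Irgm1 at -0.10, Ifi47 at -0.70 and Iigp1 at -0.66. The second Iigp1 probe was 2.05-fold lower with E33. With the median of the remaining 10 activated arrays as the reference, Ifi47 stood at -0.07 with E33 and Iigp1 at -0.16 (-0.47 by its second probe). Igtp then stood at -0.37, Irgm2 at -0.10 and Irgm1 at -0.05. In all, 0 of 5 members were at least 2-fold lower with E33, where 0.773% of 7502 genes were.

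With E14, Ifi47 was 2.01-fold lower and 1 of 5 members passed 2-fold, where 0.254% of 7482 genes did. This call, at -1.01 log2 units, lay at the threshold and was lost under 7 of 9 alternatives, 6 of them within 0.05 log2 units of that value. The next largest decreases with E14 were those of Iigp1 (-0.51) and Irgm2 (-0.43). Ifi47 stood at -0.99 with E18 and -0.95 with E19, just short of 2-fold, and Irgm2 at -0.62 with E18 and 0.00 with E19. No member passed 2-fold with E18 (0.259% of all measured genes lower) or E19 (0.354%). The activated control was 1 of the 3 highest arrays for Ifi47: with the median of the remaining 10 activated arrays as the reference the 3 compounds stood at -0.38, -0.35 and -0.32. By that reference Iigp1 stood at 0.06 and Irgm2 at -0.32 with E14.

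E5, E20, E21 and E23 had 0 members at least 2-fold lower, with background shares of 0.0947%, 0.0406%, 0.0133% and 0%. The members' median log2 change was -0.04 with E5, -0.10 with E20, -0.14 with E21 and -0.10 with E23. The largest decreases in this group were those of Ifi47 with E20 (-0.67) and E5 (-0.57) and of Iigp1 with E20 (-0.64). With E21, Ifi47 stood at 0.03 and all 5 members lay within 0.22 log2 units of each other in their change. These values too moved with the reference. Against the median of the remaining 10 activated arrays, Ifi47 stood at -0.01 with E20, 0.12 with E5 and 0.71 with E21, and Iigp1 at -0.14 with E20.

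The other genes of the pathway came from 4 lists. The guanylate-binding proteins are a sister family of interferon-inducible GTPases that coats the same vacuoles. Of 10 with a probe, 7 were measured, and these 7 were at least 2-fold higher on activation, beside 3.17% of all genes. Their median log2 change was 3.35, against 3.84 for the immunity-related GTPases. Gbp5, Gbp7 and Gbp11 were undetected without activation, so they counted as measured only through the activated array. Gbp10 was 32.5-fold, Gbp2b 21.3-fold and Gbp5 at least 12.1-fold higher. With E4, 6 of the 7 were at least 2-fold lower (median -1.22), beside 2.88% of all genes, among them Gbp7 (at least 3.93-fold) and Gbp5 (3.37-fold). With E29 all 7 were (median -3.11, bounds included), beside 14.5%. However, Gbp2b, Gbp5, Gbp7, Gbp10 and Gbp11 were undetected with E29, so they counted as measured there only through the activated control.

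Of 17 genes of interferon-gamma signalling with a probe, 14 were measured. Of these 14, 7 were at least 2-fold higher on activation and 0 lower (median 1.13), beside 3.17% and 2.12% of all genes. Among these 7, Irf8, Socs1 and Nlrc5 were undetected without activation, so they counted as measured only through the activated array. The receptor chains Ifngr1 and Ifngr2 stood at -0.02 and 0.19 and the kinases Jak1 and Jak2 at 0.73 and 0.69. The transcription factors Irf8 (at least 20.9-fold), Irf1 (8.12-fold) and Stat2 (6.38-fold) and the feedback inhibitor Socs3 (9.48-fold) were higher. With E4, 3 of the 14 were at least 2-fold lower, beside 2.88% of all genes, namely Nlrc5 (at least 2.90-fold), an activator of MHC class I genes, Irf2 (2.04-fold) and Stat2 (2.01-fold), and the median was -0.13. Irf1, whose product binds ISRE letters, stood at 14.15 in the activated control and 14.17 with E4, both among the brightest values of their arrays. With E29, 9 of the 14 were at least 2-fold lower (median -1.37), beside 14.5% of all genes. Among these 9, Stat2, Irf8 and Nlrc5 were undetected with E29, so they counted as measured only through the activated control. The 9 included Socs3 (33.8-fold), Irf1 (21.5-fold), Irf8 (at least 13.7-fold) and Jak2 (2.49-fold). The other kinase, Jak1, stood at 0.37 and Ifngr1 at 0.41.

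**Figure D4:**
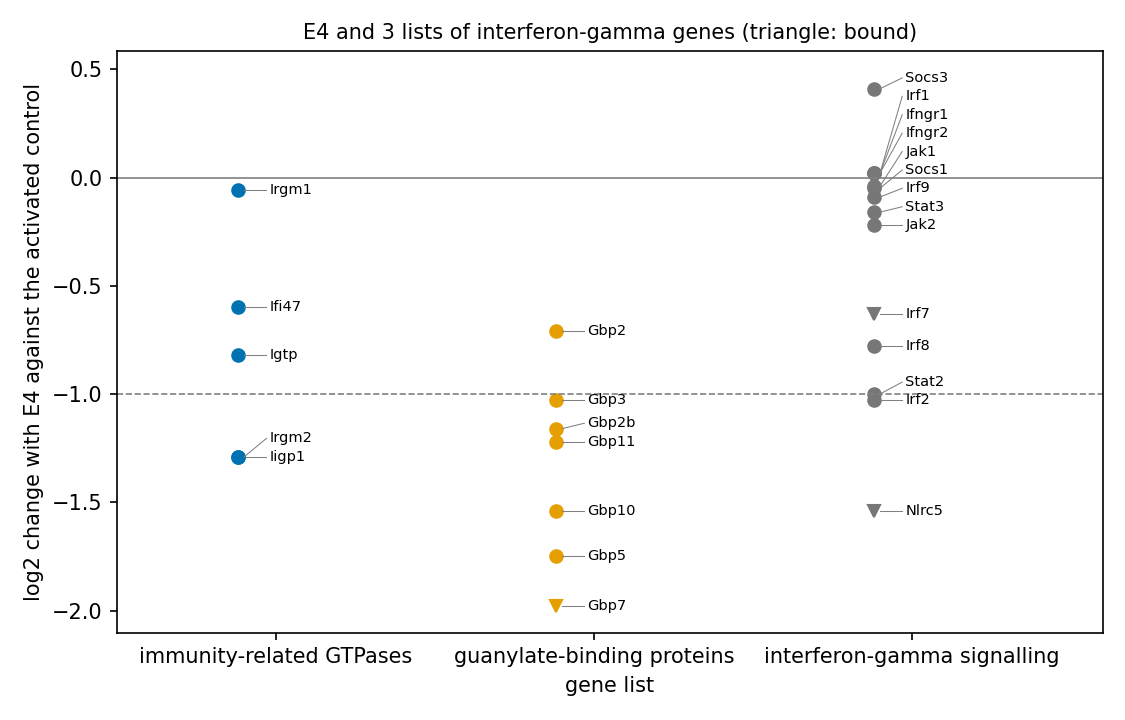
Log2 change with E4 against the activated control (vertical axis) for the measured genes of 3 lists (horizontal axis), with the dashed line at 2-fold lower and triangles for bounds. Of the guanylate-binding proteins 6 of 7 lie below the line, against 2 of 5 immunity-related GTPases and 3 of 14 signalling genes.

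The autophagy and ATG8 conjugation genes, whose products place these GTPases on the right membranes, had no member past 2-fold on activation. Of 15 measured, 0 were at least 2-fold higher and 0 lower on activation (median 0.01), and none passed 2-fold with E4 (median 0.23). With E29, 2 of 15 were at least 2-fold lower, a share near the 14.5% of all genes, and the median was 0.34. The list named other interferon-inducible GTPases had 8 genes with a probe, of which 3 were measured. Among these, the antiviral gene Mx2 was at least 2.33-fold higher on activation and at least 2.14-fold lower with E4. With E29 the bound for Mx2 was 1.53-fold. Irgq, which despite the name of the list was not higher on activation (-0.24), was 5.63-fold lower with E29. Thus 1 of these 3 passed 2-fold with E29, beside 14.5% of all genes.

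Over the 12 arrays the genes at places 2 to 6 by likeness to the mean profile of the 5 members were Gbp2 (Pearson r = 0.994), Gbp2b (0.994), Cd274, the gene of the checkpoint ligand PD-L1 (0.992), the heparan sulfate sulfotransferase gene Hs3st1 (0.987) and Gbp10 (0.987), among 643 genes whose level spanned at least 2 log2 units. The gene at place 1 has a provisional symbol and is not named. These values describe mainly that the same 2 arrays were low, and the points share the normalisation. Over the 10 activated arrays without E29, Igtp and Irgm2 had r = 0.84 with each other, Igtp and Iigp1 0.77 and Irgm2 and Iigp1 0.70. Irgm1 had r = 0.24 with Igtp and -0.20 with Irgm2. Over those 10 arrays the 5 named genes nearest to the members' mean were other ones, led by Rnf113a2 (0.989), which stood at 9.29 in the activated control and 8.32 with E4. They came from a different pool of 4217 genes with a smaller minimum span, which did not hold Cd274 or Hs3st1.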

How the data were processed

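Total RNA of 12 samples, 1 per group, was hybridised to Illumina bead arrays. The authors deposited a non-normalised mean bead intensity per probe, per the file headers, and a detection p-value against the negative controls of the array, also deposited by the authors. Per the submitters' processing notes, GenomeStudio 2010.3 was used; a background subtraction is not given in these sources. The authors also deposited a table of processed intensity, linear with a floor of 10 and array medians of 14.91 to 14.97. Each of its columns followed the same sample's column best, with the same direction, and its normalisation is not given.

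Intensities were background-corrected from the detection p-values, quantile-normalised and log2-transformed (neqc, limma 3.58.1, R 4.3.3, offset 16). Tables were made in Python 3.11.15 with pandas 2.3.3, and promoters aligned with Biopython 1.88. Of 25697 probes, 23978 had 1 gene symbol, 0 several, and 1719 are unnamed here. By gene ID, 23962 symbols were looked up in RefSeq (GRCm38.p6) and 0 changed. A gene's brightest probe over all arrays stands for it. A gene was measured where detected on at least 1 array compared (detection p-value under 0.01), and called at 2-fold. The number of arrays limits the precision. The members and lists were chosen with earlier results of these data known. Genes named from a list were those changed 2-fold, largest first, at most 6, and the nearest 5 by profile, leaving out provisional symbols (LOC, Gm, ENSMUS, Rik); Gfap and Irf1 serve as references. The genes named as unchanged, as undetected without activation, or with E4 and E29 were chosen after their values were seen. Probe sequences were not used here, so cross-hybridisation between related members was not tested.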

Additional observations from a re-analysis of the deposited data

How the results depend on the processing

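All alternatives were run, and no call changed sign. Under 9 alternatives the median of the members stayed at least 2-fold higher on activation (3.63 to 3.84) and under 8 at least 2-fold lower with E29 (-6.11 to -4.25); with E4 it lay between -0.83 and -0.43, and 5 of 5 brightest probes kept their calls in the first 2 comparisons. The number of members at least 2-fold lower with E4 was 1 in place of 2 without background correction, with median scaling and with the median of the other activated arrays as the reference. With E14 it was 0 in place of 1 under those 3 alternatives and with an offset of 50, reference gene scaling, the authors' processed table and normalisation without the E29 array. With reference gene scaling it was 1 in place of 0 for E18 and E19 (Ifi47, -1.15 and -1.12). The causes were not tested. The 5 named genes nearest by profile shared 0 with the 5 named ones nearest over 10 arrays. The 2 rankings also used different pools (643 and 4217 genes), and Cd274 and Hs3st1 were not in the second, so the arrays alone do not set this overlap. The background moved more. Genes higher and lower on activation numbered 243 and 162, 132 and 50 without background correction, 187 and 88 with an offset of 50, and 209 and 267 with reference gene scaling. For E29 760 and 1082 became 42 and 1938 with reference gene scaling, 106 and 704 without background correction and 353 and 918 with an offset of 50. For E4 the 216 lower genes ranged from 65 without background correction to 591 with reference gene scaling, and for E33 the 58 from 18 to 84. For E18 the 19 ranged from 2 to 73, for E14 the 19 from 3 to 21, for E19 the 26 from 5 to 48, and for E5, E20, E21 and E23 they stayed at 7 or fewer. Iigp1 is limited by signal over background: its activation change ranged from 1.42 to 3.48. No paired analysis was possible because each group is 1 array.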
